A study of Mus musculus with 8 samples.

Results

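The genes of the proteasome were read on 8 arrays of mouse hypothalamus and liver. Members were all probes with exactly 1 annotation symbol that starts with Psm, a letter from a to g and a digit, with 1 probe per gene. The rule found 37 genes, each with a single probe, among 33012 probes on the array, of which 14411 carried exactly 1 symbol and covered 13840 genes. Of these, 35 encode proteasome subunits, regulators or assembly factors, and 2 do not (Psmc3ip, a recombination factor, and Psme3ip1, a partner of the activator Psme3) and were kept out of the counts below. A textbook list of the family holds 48 genes, and the other 13 had no single-symbol probe and were not analysed here, among them the catalytic subunits Psmb6 and Psmb9, the activator subunit Psme1 and the lid deubiquitinase Psmd14.

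The proteasome degrades proteins that carry ubiquitin chains. Its 20S core is a barrel of outer rings of alpha subunits, which gate the entrance, and inner rings of beta subunits, of which Psmb5, Psmb6 and Psmb7 cut peptide bonds. The 19S regulator binds ubiquitin, unfolds the substrate with a ring of ATPases (Psmc genes) and strips the chain with its lid (most Psmd genes). In cells exposed to interferon gamma, Psmb8, Psmb9 and Psmb10 replace the constitutive catalytic subunits and the activator of Psme1 and Psme2 caps the core, which favours peptides for class I antigen presentation. The brain carries mainly the constitutive form.

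Each array held RNA pooled from 6 male mice, with 1 array for each of the 8 combinations of tissue, strain and diet, so no pool was repeated. B6 is the inbred strain C57BL/6J, and the congenic strain, B6.CAST-17, is B6 homozygous for donor sequence of chromosome 17, whose limits were not given in the sources used here. The chow groups ate LabDiet, and the 2-choice groups had for 1 day a carbohydrate diet and a fat diet to choose between, each 78% of that macronutrient with 22% protein, with tissue taken 4 h before lights out. The mice were those of 20 to 25 tested per strain with the most divergent intake over 10 days of diet selection, followed by 6 weeks back on chow. Their age was not given in the sources used here.

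Levels are log2 of the deposited intensity after quantile normalization over the 8 arrays, and a level of one probe cannot be set against that of another. The authors had brought both strains of a tissue and diet to a common distribution, with median intensities of 560 and 1338 for hypothalamus on chow and on 2-choice and of 700 and 702 for liver, so the effects of diet and of scaling set cannot be told apart. Hepatocyte, neuronal and hypothalamic peptide genes matched the labels: 6 of 6 hepatocyte genes were higher in liver, and 5 of 5 tested neuronal genes and 6 of 6 hypothalamic peptide genes were lower. Another neuronal gene, Snap25, was too dim to be tested. The 2 astrocyte genes were split, with Slc1a3 lower in liver (-4.52) and Aldh1l1 higher (4.36). The arrays of the hypothalamus chow pair correlated at 0.882 over all probes, those of the hypothalamus 2-choice pair at 0.971 and those of liver at 0.917 to 0.944. With no pool repeated, the error of every test came from how far matched pairs disagreed. The p-values therefore do not measure the spread between repeated pools.

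RefSeq promoter windows (GRCm38.p6, 250 bases before to 50 after the start) were matched by symbol for 29 of the 35 genes, as 32 windows. Those of 5 genes on which the tissue and diet results turn are shown: Psmb8 at chr17:34197945-34198244 on the plus strand, Psmb10 at chr8:105938343-105938642 on the minus strand, Psme4 at chr11:30771525-30771824 on the plus strand, Psmb5 at chr14:54617946-54618245 on the minus strand and Psmd12 at chr11:107479278-107479577 on the plus strand. Capitals mark matches, on either strand, to the interferon gamma activated site (TTCNNNGAA), the interferon-stimulated response element (GAAANNGAA) or the antioxidant response element (TGACNNNGC). No matches overlapped within these windows.
Psmb8: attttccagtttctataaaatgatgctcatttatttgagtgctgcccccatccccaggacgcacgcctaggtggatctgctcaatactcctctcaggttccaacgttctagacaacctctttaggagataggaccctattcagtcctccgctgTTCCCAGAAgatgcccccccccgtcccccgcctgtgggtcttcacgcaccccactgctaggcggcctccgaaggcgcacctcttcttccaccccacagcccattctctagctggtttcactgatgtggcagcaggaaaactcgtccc
Psmb10: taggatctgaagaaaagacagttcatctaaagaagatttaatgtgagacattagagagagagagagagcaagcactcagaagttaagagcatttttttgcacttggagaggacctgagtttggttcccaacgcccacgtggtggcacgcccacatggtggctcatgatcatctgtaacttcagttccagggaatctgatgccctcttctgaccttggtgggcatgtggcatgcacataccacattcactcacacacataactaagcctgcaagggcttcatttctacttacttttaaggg
Psme4: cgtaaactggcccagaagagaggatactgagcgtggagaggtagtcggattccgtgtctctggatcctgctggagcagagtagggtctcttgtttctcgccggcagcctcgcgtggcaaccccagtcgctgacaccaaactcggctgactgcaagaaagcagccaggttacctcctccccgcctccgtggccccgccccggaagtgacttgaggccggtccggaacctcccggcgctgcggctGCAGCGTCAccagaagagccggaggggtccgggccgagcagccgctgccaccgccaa
Psmb5: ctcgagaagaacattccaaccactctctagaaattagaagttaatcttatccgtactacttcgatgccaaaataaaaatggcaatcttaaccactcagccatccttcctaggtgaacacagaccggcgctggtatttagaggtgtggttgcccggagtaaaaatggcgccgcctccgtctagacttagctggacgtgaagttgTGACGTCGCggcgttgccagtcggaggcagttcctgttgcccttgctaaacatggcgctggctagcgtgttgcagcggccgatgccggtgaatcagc
Psmd12: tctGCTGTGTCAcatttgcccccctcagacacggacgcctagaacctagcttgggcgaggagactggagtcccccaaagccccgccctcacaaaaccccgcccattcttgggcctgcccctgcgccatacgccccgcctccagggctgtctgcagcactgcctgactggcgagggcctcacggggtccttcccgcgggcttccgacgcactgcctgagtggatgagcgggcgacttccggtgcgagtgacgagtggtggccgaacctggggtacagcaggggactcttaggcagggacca
The match in Psmb8 was an interferon gamma activated site that began at position -97 from the start, and the Psmb10 window held no match to any of the 3 motifs. Antioxidant response elements were matched at -7 in Psme4, -47 in Psmb5 and -247 in Psmd12. Over the 32 windows of the family, 3 held the interferon gamma activated site (9.38%, against 8.30% of 32851 promoters of all genes), 4 the interferon-stimulated element (12.5% against 8.56%) and 4 the antioxidant element (12.5% against 12.4%). Each share of the family rests on 3 or 4 windows.

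Within a tissue, the core and regulator genes varied about as much as other probes of like brightness. Among probes with a mean level of at least 12, the median SD over the 4 hypothalamus arrays was 0.28 for 29 members and 0.32 for 7240 probes, and in liver it was 0.19 for 33 members and 0.21 for 7390 probes. At that brightness an SD under 0.5 was found for 26 of 29 members in hypothalamus, against 78.9% of probes, and for 32 of 33 in liver, against 93.1%. Over all probes tested, dim ones included, the medians were 0.54 in hypothalamus and 0.41 in liver. Psmb4, a structural beta subunit, had levels in hypothalamus of 16.46 (B6 chow), 16.43 (congenic chow), 16.66 (B6 2-choice) and 16.55 (congenic 2-choice), and in liver of 16.40, 16.45, 16.49 and 16.56 in the same order, which all later lists of 4 values follow. The tissues overlapped in this scaling, but the tissue difference of Psmb4, -0.05, turned to between 0.87 and 1.18 under 3 other ways of scaling the arrays to each other. Psmb7, the constitutive subunit with trypsin-like activity, read 15.93, 16.35, 15.94 and 15.88 in hypothalamus and 16.07, 15.91, 16.03 and 15.96 in liver, and the tissues overlapped. The members with an SD above 1 in hypothalamus were Psmb5 (2.05), the assembly chaperone Psmg2 (1.75), the alpha subunit Psma5 (1.46), the thymus-restricted Psmb11 (1.43) and the inhibitor Psmf1 (1.02).

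The first comparison was between the tissues. Both immunoproteasome subunits measured and 2 of 3 activators were higher in liver than in hypothalamus. In the 19S regulator 4 subunits were lower in liver, of which 2 turned in sign under another scaling, and 9 of 11 constitutive core subunits did not pass the test. limma called 12 of 34 members tested (35.3%), of which 7 were higher in liver and 5 lower. Over all 19807 probes tested 49.1% were called, 24.1% higher and 25.0% lower. In this scaling the family thus held a smaller share of calls than the array as a whole. That order turned with quantile normalization within each tissue (19 members and 9894 probes called) and with median centring (17 members and 9088 probes). It held on the deposited values (3 members and 5579 probes). At least 2-fold apart were 9 of 34 members (26.5%), against 49.5% of all probes. Among probes with a mean level of at least 12 in the first scaling, 11 of 30 members were called, against 67.6% of 7007 probes. At that brightness 6 members were at least 2-fold apart, against 52.0% of probes. The median size of the difference was 0.53 on the log2 scale for the members and 0.99 for all probes. In bulk tissue, fewer cells of a type and less RNA per cell cannot be told apart.

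**Figure D1:**
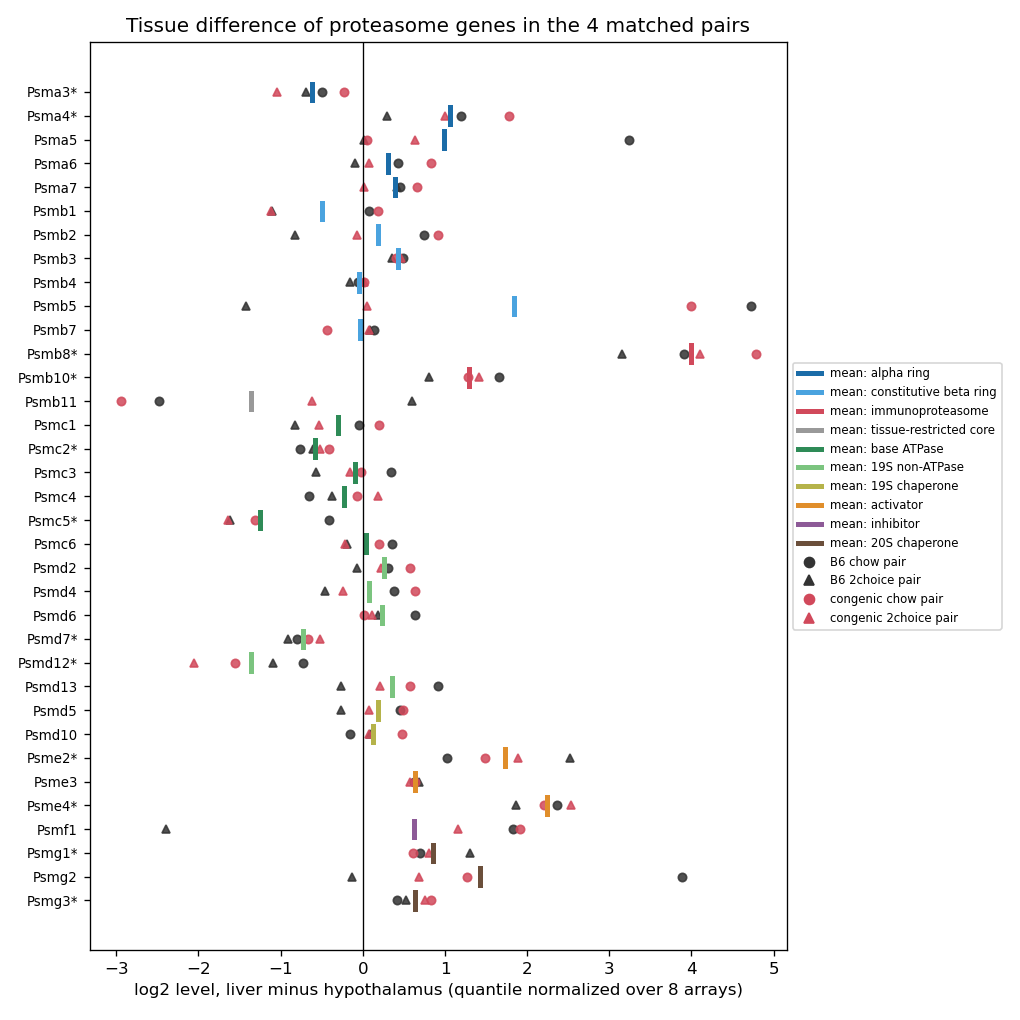
Liver minus hypothalamus difference in log2 level for the 35 proteasome genes: points are the 4 matched pairs (colour strain, shape diet), the vertical bar is their mean in the colour of the class, and an asterisk marks the 12 called genes. Psmb8, Psme4, Psme2 and Psmb10 lie to the right in all 4 pairs and Psmd12 and Psmc5 to the left, while Psmb5, Psma5, Psmg2 and Psmf1 have pairs far apart. Psmb11 was too dim to be tested.

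Psmb8, the immunoproteasome subunit that takes the place of Psmb5, had levels of 9.84, 8.63, 10.34 and 9.83 in hypothalamus. In liver it read 13.75, 13.41, 13.50 and 13.94. No liver array overlapped a hypothalamus array, and the fitted difference was 3.99 ± 0.35 (SE, 4 pairs; 15.9-fold; limma adjusted p = 5.20e-06). The hypothalamus values lay around the filter level of 9.24 and 1 was under it, and with that value raised to the filter level the difference was 3.84, or 14.3-fold. Psmb10, which takes the place of Psmb7, read 12.97, 13.49, 13.44 and 13.23 in hypothalamus and 14.64, 14.78, 14.24 and 14.65 in liver. Its difference was 1.29 ± 0.21 (2.45-fold; limma adjusted p = 4.72e-04), in the same direction in 4 of 4 pairs. The gene's constitutive counterpart Psmb7 had a difference of -0.03 ± 0.17 (limma adjusted p = 0.893), a value whose sign turned under other scalings (0.74 to 1.05).

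All 3 activators measured were higher in liver in every pair, against 29.6% of all probes. The test called 2 of them higher, against 24.1% of all probes. Psme2, the beta subunit of the interferon-inducible activator PA28, read 13.63, 13.11, 11.91 and 12.35 in hypothalamus and 14.66, 14.60, 14.43 and 14.24 in liver. It was 3.32-fold higher in liver (log2 1.73 ± 0.26; limma adjusted p = 2.64e-04). Psme4, the nuclear activator PA200, read 11.98, 12.05, 11.95 and 11.57 in hypothalamus and 14.36, 14.25, 13.81 and 14.10 in liver. The 4 hypothalamus arrays lay close together and far below the liver arrays, with a difference of 2.24 ± 0.23 (4.73-fold; limma adjusted p = 1.60e-05). Psme3, the nuclear PA28 gamma, read 11.84, 12.31, 12.34 and 12.08 in hypothalamus and 12.46, 12.95, 13.04 and 12.65 in liver. Its arrays did not overlap between tissues, but the difference of 0.63 ± 0.25 missed the threshold (limma adjusted p = 0.0561).

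**Figure D2:**
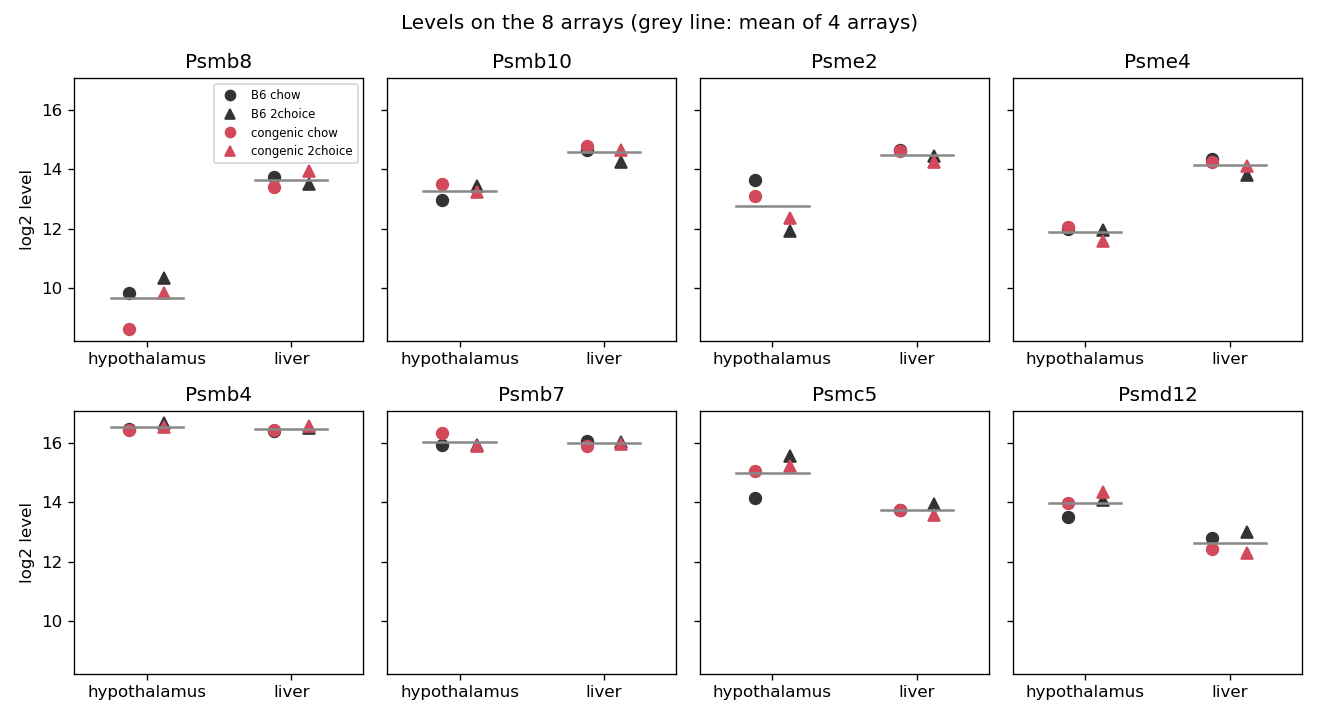
Log2 level on each of the 8 arrays for 8 proteasome genes; colour gives strain, shape gives diet and the grey line is the mean of a tissue's 4 arrays. Psmb8, Psmb10, Psme2 and Psme4 (upper row) are higher on every liver array, Psmb4 and Psmb7 overlap between tissues in this scaling (both turned under others), and Psmc5 and Psmd12 are lower on every liver array.

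In the core's alpha ring, Psma4 was higher in liver (1.06 ± 0.25; limma adjusted p = 0.00484) and Psma3 lower (-0.62 ± 0.21; 0.0326), at -0.07 to -0.38 and not called under the other scalings. Psmb5, the chymotrypsin-like constitutive subunit, gave 4.72 and 4.00 in the chow pairs of B6 and congenic mice but -1.42 and 0.05 in the 2-choice pairs, and its mean of 1.84 ± 0.88 did not pass (limma adjusted p = 0.112). With the 2-choice pairs alone, an alternative chosen after seeing the data, its difference was -0.69. The core's assembly chaperones Psmg1 (0.85 ± 0.21; limma adjusted p = 0.00640) and Psmg3 (0.64 ± 0.21; 0.0279), which help to build the alpha ring, were higher in liver. Psmg3 read 13.08, 13.13, 13.02 and 13.05 in hypothalamus and 13.50, 13.96, 13.55 and 13.82 in liver, with no overlap. The call on Psmg3 was lost without the B6 2-choice, the congenic 2-choice or the congenic chow pair (limma adjusted p = 0.0639, 0.135 and 0.0861), and that on Psma3 without the B6 2-choice or the congenic 2-choice pair (0.0981 and 0.20).

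The 19S regulator had 4 of 12 subunits lower in liver and none higher by the test, against 25.0% lower and 24.1% higher among all probes. Of these 4, 2 turned in sign under another scaling, Psmd7 and Psmc2. Psmd12, a scaffold subunit of the lid, read 13.51, 13.97, 14.08 and 14.34 in hypothalamus and 12.78, 12.42, 12.99 and 12.28 in liver. It was 2.56-fold lower in liver (log2 -1.36 ± 0.26; limma adjusted p = 0.00138), with no overlap between tissues. Psmc5, an ATPase of the base, read 14.16, 15.06, 15.56 and 15.21 in hypothalamus and 13.75, 13.75, 13.94 and 13.56 in liver, and was 2.37-fold lower (log2 -1.24 ± 0.24; limma adjusted p = 0.00129). Psmd7, the lid subunit that pairs with the deubiquitinase, read 16.10, 16.05, 15.95 and 15.94 in hypothalamus and 15.30, 15.38, 15.05 and 15.42 in liver, which are again separate. Its difference was -0.72 ± 0.16 (limma adjusted p = 0.00376), and that of the ATPase Psmc2 was -0.57 ± 0.16 (0.0108). The other 8 subunits, which include the ubiquitin receptor Psmd4, lay between -0.30 and 0.36.

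The direction of the smaller differences depended on how arrays were scaled to each other. With quantile normalization within each tissue the 7 higher and 5 lower calls became 17 and 2, against 4926 and 4968 over all probes. They became 17 and 0 with median centring, against 5287 and 3801, and 3 and 0 on the deposited values, against 2439 and 3140. Those 3 were Psmb8, Psme4 and Psme2, which were called higher under all 4 scalings. Psmb10 was called under all but the deposited values (1.56; limma adjusted p = 0.121). Psmd12 and Psmc5 stayed below 0 under each scaling, at -0.93 to -1.36 and -0.54 to -1.24, but were not called with median centring or on the deposited values. Psmd7 turned to 0.29 with median centring, and Psmc2 to 0.35 to 0.66 under the other 3 scalings. The median of all probes moved from 0.04 to between -0.06 and 0.24. Relative to the median member, which moved from 0.25 to between 0.75 and 1.05, the difference of Psmb8 was 3.03 to 3.74, that of Psmd12 -1.61 to -1.99 and that of Psmd7 -0.76 to -0.97.

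Other genes of antigen presentation, from a list chosen with earlier results known, were higher in liver as well. Of 10 measured, 8 were called higher and none lower, against 24.1% higher and 25.0% lower among all probes. Among the 8 were the class I heavy chain H2-K1 (4.79 ± 0.18; limma adjusted p = 6.49e-09), the peptide-trimming enzyme Erap1 (4.51 ± 0.35), the class I light chain B2m (4.01 ± 0.26) and the peptide transporter Tap1 (2.85 ± 0.41). Irf1, a transcription factor of the interferon response, was also higher (2.48 ± 0.45), while Irf8 (-0.06 ± 0.47) and the chaperone Canx (0.04 ± 0.22) did not pass. Under the other 3 scalings 5 to 9 of the 10 were called higher and none lower, and H2-K1, Erap1, B2m, Tap1 and Irf1 were called each time. Of the macrophage and microglia markers 2 of 6 were called higher in liver, Clec4f of Kupffer cells (5.39) and C1qc (0.82), again against 24.1% of all probes. Summed levels of a list are the log2 of summed linear values, so the brightest probes weigh most. The summed level of these 6 ranged from 15.34 to 16.00 over the hypothalamus arrays and from 15.73 to 17.04 over the liver arrays. Of 4 endothelial markers tested, 2 were called higher (Stab2, 4.60, and Kdr, 4.02), with summed levels of 11.28 to 12.50 against 15.23 to 15.61. Summed lymphocyte markers stood at 10.04 to 11.67 against 10.98 to 11.78, and 3 of those 4, Cd3d, Cd3e and Ptprc, were too dim to be tested. The remaining one, Cd79a, was called higher in liver (1.47 ± 0.46; limma adjusted p = 0.0225). That call was lost with quantile normalization within each tissue (limma adjusted p = 0.0555) and on the deposited values (0.251). The part of these cells in the difference of Psmb8, Psmb10 and Psme2 was not tested. Clec4f read 8.14 to 9.53 in hypothalamus, around the filter level of 9.24, and passed the filter through its liver arrays. The lowest hypothalamus levels of Tap1 (8.19), Erap1 (8.57), Irf1 (8.77), Stab2 (8.9), Kdr (9.19) and Cd79a (8.65) also lay under the filter level. These dim levels limit the size of the differences.

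Of 15 partners of the proteasome tested, 8 were called lower in liver and 3 higher, against 25.0% and 24.1% of all probes. That split became 5 and 5 with quantile normalization within tissue, 2 and 5 with median centring, and 1 and 0 on the deposited values. The ubiquitin shuttle factor Ubqln2 was lower under all 4 scalings (-3.17 ± 0.20; limma adjusted p = 3.57e-07). The others lower included the proteasome-bound deubiquitinases Usp14 (-1.93 ± 0.17) and Uchl5 (-0.66 ± 0.17, which turned to 0.21 with median centring), and Nfe2l1 (-1.01 ± 0.27), the transcription factor that induces proteasome genes when activity is short. The higher ones were Ngly1 (1.43 ± 0.29), which deglycosylates and so activates the Nfe2l1 protein, the shuttle factor Rad23b (1.34 ± 0.41) and Pomp (0.49 ± 0.19), the maturation factor of the core. The median of the list was -0.60 (-0.10 to 0.21 under the other scalings), against 0.25 for the 34 members and 0.04 for all probes tested.

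The second comparison was between the strains. No member differed between congenic and B6 pools by the test, over both tissues or within either. limma called 0 of 34 members and 0.00% of 19807 probes over both tissues, with 814 probes and 1 member at an unadjusted p under 0.05. That member was Psmb1, a beta ring subunit encoded at chr17:15475721-15498276 (GRCm38), 1 of 2 members on the chromosome that carries the donor segment. Psmb1 read 16.68, 16.84, 17.25 and 17.65 in hypothalamus and 16.75, 17.03, 16.14 and 16.52 in liver. The congenic array was the higher of the pair in all 4 pairs, by 0.17 and 0.40 in hypothalamus and 0.29 and 0.39 in liver, for chow and 2-choice. The difference was 0.31 ± 0.10, or 1.24-fold (limma adjusted p = 0.878). Of the 34 members, 2 were higher in every pair, against 6.78% of all probes, and none was lower in every pair, against 6.85%. The other was Psmg3, with a difference of 0.20 ± 0.16.

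Psmb8, the other member on chromosome 17 (chr17:34198195-34201454), had no such pattern. Its congenic array was lower by 1.22 and 0.51 on chow and 2-choice in hypothalamus, at levels close to the filter, and in liver it was lower by 0.34 on chow and higher by 0.44 on 2-choice. The liver difference was 0.05 ± 0.41 (limma adjusted p = 0.998) and the hypothalamus difference -0.86 ± 0.41 (0.820). The difference between the tissues in strain effect was tested and called 0 of 34 members and 0.00% of 15458 probes (746 at an unadjusted p under 0.05), with a value of 0.91 ± 0.60 for Psmb8 (limma adjusted p = 0.83).

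**Figure D3:**
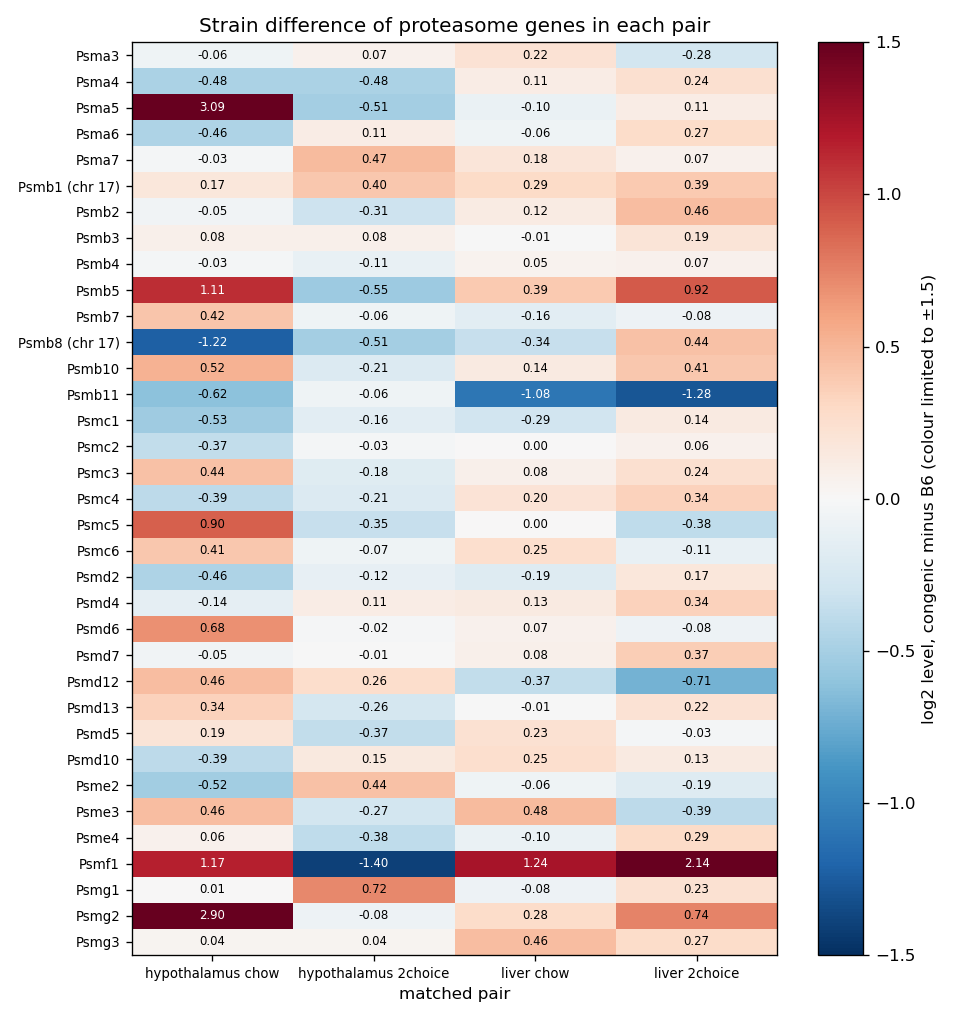
Congenic minus B6 difference in log2 level for the 35 proteasome genes (rows) in the 4 matched pairs (columns); each cell prints its value and colours are limited to 1.5 in either direction. Psmb1 is positive in all 4 pairs, Psmb8 is negative in 3, and the hypothalamus chow column holds the widest values (3.09 for Psma5 and 2.90 for Psmg2).

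In liver 0 of 34 members were called (0.00% of all probes; 1267 probes and 1 member at an unadjusted p under 0.05). Higher in the congenic pools on both diets were 15 of 34, against 28.1% of all probes, and lower on both were 4, against 28.7%, and both counts were the same under all 4 scalings. Among probes with a mean level of at least 12, 14 of 33 members were higher, against 33.8% of 7390 probes. At that brightness 4 were lower, against 28.4%. The sizes were small, with a median of 0.09 against 0.01 for all probes. Psmf1, the inhibitor PI31, had the widest difference, at liver levels of 10.41 and 11.65 in B6 and congenic pools on chow and 8.68 and 10.82 on 2-choice. That is 1.69 ± 0.75 (limma adjusted p = 0.792), and the B6 2-choice level lay under the filter level of 9.14. In hypothalamus the same gene read 8.57 (under the filter level of 9.17) and 9.74 on chow and 11.06 and 9.66 on 2-choice. There the strain pairs went in opposite directions. The next were Psmb5 (0.65 ± 0.52) and Psmg2 (0.51 ± 0.66), which read 12.27 and 12.55 on chow and 11.98 and 12.72 on 2-choice. Lower were Psmd12 (-0.54 ± 0.23; unadjusted p = 0.0481), Psmc5 (-0.19 ± 0.30), Psme2 (-0.13 ± 0.27) and Psmb7 (-0.12 ± 0.17).

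In hypothalamus 0 of 35 were called (0.00% of all probes; 942 probes and 1 member at an unadjusted p under 0.05). On both diets 5 members were higher in the congenic pools, against 24.4% of all probes, and 10 were lower, against 25.1%. Psma4, an alpha ring subunit, read 13.48 and 13 in B6 and congenic pools on chow and 13.87 and 13.39 on 2-choice, a difference of -0.48 in each pair (SE 0.20; limma adjusted p = 0.820). Psmc1, an ATPase of the base, read 15.94 and 15.41 on chow and 16.34 and 16.17 on 2-choice (-0.35 ± 0.18). On the positive side were Psmg1 (0.37 ± 0.25), at 13.33 and 13.34 on chow and 12.82 and 13.54 on 2-choice, and Psmd12 (0.36 ± 0.23), which had the opposite sign in liver. The tissue difference in the strain effect of Psmd12 was -0.90 ± 0.32 and did not pass (limma adjusted p = 0.826). The spread of the strain differences over members was 0.86 (SD) in the hypothalamus chow pair, 0.37 in its 2-choice pair, 0.35 in liver on chow and 0.52 in liver on 2-choice.

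The third comparison was between the diets, in liver first. No liver proteasome gene passed the test between diets. limma called 0 of 34 members and 0.00% of 19807 probes, with 1542 probes and 5 members at an unadjusted p under 0.05. Lower in both strains were 19 of 34 members, against 30.8% of all probes, and higher in both were 2, against 29.3%. Among probes with a mean level of at least 12, the count was 18 of 33 members against 35.8% of 7390 probes. The members' median was -0.19, against -0.01 for all probes, and it ranged from -0.19 to -0.28 over the 4 scalings, with 19 to 24 members lower in both strains. By class, lower in both strains were 3 of 5 alpha subunits, 4 of 6 constitutive beta subunits, 3 of 6 ATPases, 4 of 6 other 19S subunits, 1 of 2 chaperones of the 19S regulator, 2 of 3 activators, 1 of 2 immunoproteasome subunits and the inhibitor. Of the 3 chaperones of the core, none was lower in both strains and 1 was higher.

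Psmb5 was the member with the widest liver difference, at 12.82 in B6 and 13.21 in congenic pools on chow and 10.95 and 11.86 on 2-choice. Both chow arrays were above both 2-choice arrays, with a difference of -1.61 ± 0.52 (3.04-fold lower; limma adjusted p = 0.547). Psmd4, the ubiquitin receptor of the 19S regulator, read 15.13 and 15.26 on chow and 14.22 and 14.56 on 2-choice, again apart, with -0.81 ± 0.18 (limma adjusted p = 0.420). Psmb1 was at -0.56 ± 0.15 (0.520) and Psmf1 at -1.28 ± 0.75 (0.713). The Psmf1 level on the B6 2-choice array, 8.68, lay under the filter level of 9.14. A fit on the 4 liver arrays alone, with 1 residual degree of freedom, called Psmb5 (limma adjusted p = 0.00411), Psmd4 (0.00379) and Psmb1 (0.0260), and 545 probes in all. The 2 members higher in both strains were Psmg1 (0.24 ± 0.25), at 14.03 and 13.95 on chow and 14.12 and 14.35 on 2-choice, and Psmb4 (0.10 ± 0.15), whose sign turned with median centring and on the deposited values (-0.01 each).

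Markers of other cells moved in the same arrays. All 6 macrophage markers were lower in liver on 2-choice, by fitted differences of -0.86 to -1.66 with a median of -1.09, and none passed, the lowest being C1qb (limma adjusted p = 0.309). The 4 endothelial markers tested had a median of -0.72, from -1.16 (Pecam1) to 0.05 (Kdr). The 6 hepatocyte markers had a median of 0.06, from -1.01 (Ttr) to 0.13 (Alb). The B6 pairs of Adgre1, a macrophage marker (9.59 on chow and 9.75 on 2-choice), and of the endothelial Tek (10.65 and 10.72) were not lower on 2-choice. The part of these cells in the lower values of the proteasome genes was not tested. The immunoproteasome subunits Psmb8 and Psmb10 were at 0.14 ± 0.41 and -0.26 ± 0.24. The 16 partners of the proteasome had a median of -0.14, and none passed.

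In hypothalamus, 1 of 35 members was called between diets, Psmb5, against 1.02% of all probes. Its levels were 8.09 in B6 and 9.20 in congenic pools on chow and 12.37 and 11.82 on 2-choice. Of the chow values 1 lay below the filter level of 9.17 and 1 just above it, with deposited intensities of 243.7 and 467.9, under the array median of 560, so the gene passed the filter through its 2-choice arrays. With the chow level under the filter raised to it, Psmb5 was 7.49-fold higher on 2-choice (log2 2.91). The fit on the levels as measured gave 3.44 ± 0.52 (limma adjusted p = 0.0355), with 4.27 in B6 and 2.61 in congenic mice. The call was lost without the B6 2-choice hypothalamus array (2.61; limma adjusted p = 0.0660) and without any one of the 4 liver arrays, which share the error (0.0666 to 0.0815), and without the variance trend (0.211). In the same tissue 1 of 4 hepatocyte genes tested was called higher on 2-choice, Ttr, also a choroid plexus gene (2.57 ± 0.26; limma adjusted p = 0.0121). The median of these genes was 1.28, with Apoc3 at -0.29. Of 5 neuronal genes tested 1 was called, Syt1, which was lower (-1.23 ± 0.20; limma adjusted p = 0.0390). The neuronal median was 0.02, with Stmn2 at 0.82 and Gad1 at -0.27. The part of these genes' cells in the Psmb5 value was not tested.

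**Figure D4:**
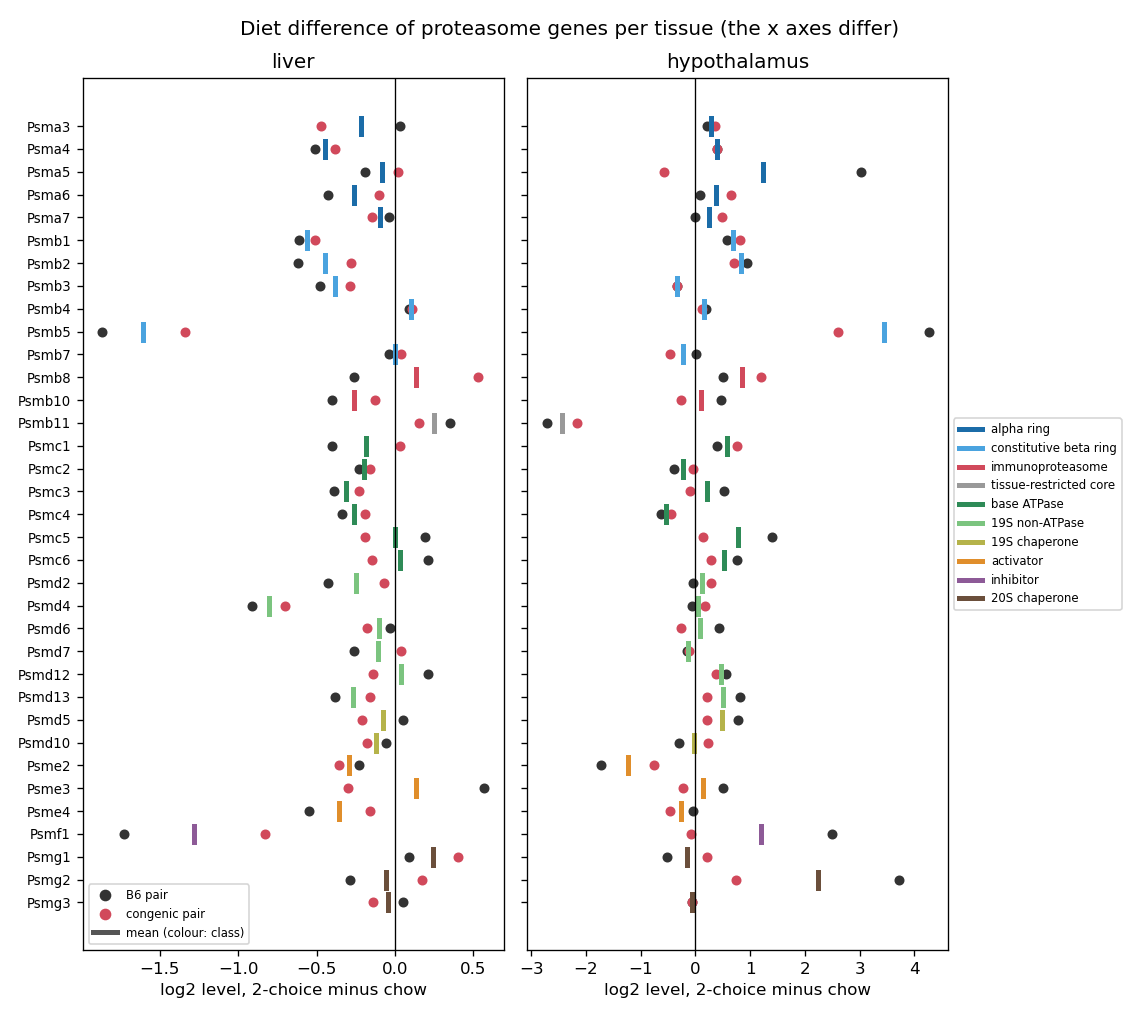
2-choice minus chow difference in log2 level for the 35 proteasome genes in liver (left) and hypothalamus (right); points are the B6 and congenic pairs and the bar is their mean, in the colour of the class. In liver 19 genes have both points left of 0 and Psmb5 reaches -1.87 and -1.34, while in hypothalamus Psmb5 lies at 4.27 and 2.61 and Psmb11 at -2.72 and -2.17. In hypothalamus Psmb5 on chow and Psmb11 on 2-choice lay near or under the filter level. The x axes differ in range.

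The other hypothalamus values did not pass and went both ways. Higher on 2-choice in both strains were 15 of 35, against 33.5% of all probes, and lower in both were 8, against 29.7%. Psmg2 read 8.38 and 11.28 on chow and 12.11 and 12.03 on 2-choice, so its difference of 2.24 ± 0.64 rested mostly on the B6 chow array, which was under the filter level (1.85 with it raised to that level; limma adjusted p = 0.115). Psmb11, whose gene lies at chr14:54625310-54629556 near Psmb5 (chr14:54614120-54617995), read 11.44 and 10.82 on chow and 8.72 and 8.66 on 2-choice, the opposite order to Psmb5 (-2.44 ± 0.61; limma adjusted p = 0.0930). Both 2-choice levels lay under the filter level of 9.17, so Psmb11 passed the filter through its chow arrays, which limits the size of its difference. In liver Psmb11 was at 8.96, 7.88, 9.31 and 8.03, with a mean under the filter level of 9.14. Psme2 was lower on 2-choice by -1.24 ± 0.27 (limma adjusted p = 0.0701), with -1.72 in B6 and -0.76 in congenic mice, and Psmc4, an ATPase of the base, was at -0.53 ± 0.17 (0.135), from 15.75 and 15.36 on chow to 15.13 and 14.92 on 2-choice. Psmb2 (0.83 ± 0.18; 0.0701), Psmb1 (0.69 ± 0.16; 0.0768) and Psmb8 (0.85 ± 0.41; 0.282) were at higher values.

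Counts in hypothalamus depended on the scaling, and the chow and 2-choice arrays there came from sets with different distributions. Median centring gave 31 members called among 7633 probes and the deposited values 34 among 15430, with the median of all probes moved from 0.06 to 0.79 and 2.05. The median of the members was 0.21 against 0.06 for all probes in the quantile-normalized data, 1.09 against 0.79 with median centring and 2.35 against 2.05 on the deposited values. Psme2 and Psmc4 turned to 1.17 and 1.67 on the deposited values, under that shift.

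Over both tissues the diet fit called 0 of 34 members and 0.00% of probes, with 1775 probes and 3 members at an unadjusted p under 0.05. In every one of the 4 pairs 1 member was higher on 2-choice, against 10.3% of all probes, and 5 were lower, against 8.74%. The one higher was Psmb4 (0.13 ± 0.14), and the lower ones were Psme2 (-0.76 ± 0.26; limma adjusted p = 0.525), Psmc4 (-0.40 ± 0.16), Psmb3 (-0.36 ± 0.16), Psme4 (-0.30 ± 0.22) and Psmc2 (-0.21 ± 0.14). Psmb3, a structural beta subunit, read 14.79, 14.87, 14.45 and 14.53 in hypothalamus and 15.29, 15.28, 14.81 and 15.00 in liver, lower on both 2-choice arrays of each tissue in this scaling. All 5 directions turned under other scalings, on the deposited values for Psme2 (0.40) and also with median centring for Psmc4 (0.02 and 0.65 on the deposited values), Psmb3 (0.06 and 0.69), Psme4 (0.15 and 0.78) and Psmc2 (0.09 and 0.72). The median of all probes moved from 0.05 to 0.36 and 0.99 under these 2 scalings.

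The tissues were compared directly in their diet difference, and 0 of 34 members and 0.00% of 15458 probes were called (2395 probes and 10 members at an unadjusted p under 0.05). Psmb5 was lower on 2-choice in both liver pairs and higher in both hypothalamus pairs, a difference between tissues of -5.05 ± 0.75 as fitted (limma adjusted p = 0.121). That value rests mostly on the dim hypothalamus chow arrays, and with the level under the filter raised to it the difference was -4.51. Psmb2 and Psmb1, beta subunits of the same ring, had the same order, with -1.28 ± 0.24 (0.167) and -1.25 ± 0.22 (0.146). Psmb4 and Psmb7 of that ring were at -0.06 ± 0.21 and 0.23 ± 0.24, and the immunoproteasome subunits Psmb8 and Psmb10 at -0.71 ± 0.60 and -0.36 ± 0.33. Median centring and the deposited values gave 27 and 34 calls, with the median of all probes moved from -0.07 to -0.83 and -2.08.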

How the data were processed

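Of the 8 samples, each a pool of 6 mice on 1 chemiluminescent single-channel array of Applied Biosystems (digoxigenin-labelled cRNA, per the labels' protocols), the deposited series table gave linear intensity per probe. How the authors corrected background and normalized was not given in the sources used here. Sorted values of both strains of a tissue and diet agreed within 0.244% in the deposited table. Groups came from sample titles and characteristics; some free-text descriptions differ, naming hypothalamus for liver samples and C57BL/6J for a congenic chow sample.

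Deposited intensity was taken to log2 and quantile normalized over the 8 arrays, because members were compared over tissue. Probes whose mean level lay at or above the 40th percentile were tested in R 4.3.3 by limma 3.58.1 (lmFit, then eBayes with trend), with Benjamini-Hochberg adjustment over all probes tested and a threshold of 0.05. Tissue, strain and diet over all arrays took the 4 matched pairs as blocks, which left 3 residual degrees of freedom. Effects within a tissue and interactions came from 1 fit with strain and diet nested in tissue, which left 2. Gene names came from the platform annotation, in which 247 probes carried several symbols and 18354 none. Scripts were tested on simulated data. Named genes were the catalytic beta subunits, immunoproteasome, activators, inhibitor and chromosome 17 members, with the 3 widest differences in each direction that kept 1 sign in every pair of a comparison. Members, lists and rules were chosen with earlier results of these data known. The number of arrays limits the precision.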

Additional observations from a re-analysis of the deposited data

Results flagged for a closer look

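Over the 4 arrays of a tissue, 74 sets of values of the 37 genes were examined for a single array far from the rest, at Dixon's critical ratio, and 3 passed, where about 1 set in 20 would do so by chance. The 4 arrays differ in strain and diet and are not replicates. All 3 were in hypothalamus: Psma7, an alpha ring subunit, was high on the congenic 2-choice array (15.53, against 15.04 to 15.06 on the other 3). Psmb7, a catalytic beta subunit, was high on the congenic chow array (16.35, against 15.88 to 15.94). Psmc2, an ATPase of the base, was high on the B6 chow array (17.23, against 16.81 to 16.86).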

How the results depend on the processing

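With 1 pool per combination, pool-to-pool error was not measured, and levels near the filter (Psmb5 and Psmg2 in hypothalamus on chow, Psmb8 in hypothalamus, Psmf1, Psmb11) limit every fold that rests on them. Averaging several probes of a gene gives the same values, since each gene had 1 probe.

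The tissue calls, 12 as reported, were 19, 17 and 3 with quantile normalization within tissue, median centring and deposited values, of which 17, 17 and 3 were higher and 2, 0 and 0 lower. Over all probes the 9729 calls became 9894, 9088 and 5579 in the same order. Lower calls among members numbered 2 without the variance trend. Members at least 2-fold apart were 18 with median centring. The members' median minus that of all probes, 0.21, was 0.80, 0.81 and 0.81 under the 3 scalings. The signs turned, in the same order, for Psmc2 (0.35, 0.66, 0.35), Psmb1 (0.49, 0.80, 0.49) and Psmb7 (0.75, 1.05, 0.74), and for Psmd7 with median centring (0.29). With the 2-choice pairs alone, they turned for Psmb5 (-0.69), Psmf1 (-0.61) and Psmb7 (0.09).

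Liver diet calls were 3 on that tissue's arrays alone, and Psmb4 turned to -0.01 under median centring and deposited values. Hypothalamus diet calls were 31, 34 and 0 under median centring, deposited values and no trend, where Psmc4 turned to 0.41 and 1.67 under the first 2 of these and Psme2 to 1.17 on deposited values. Over both tissues Psmc4 (0.02 and 0.65) and Psmb3 (0.06 and 0.69) turned, as did Psme2 on deposited values (0.40). Diet by tissue calls were 27 and 34. The cause was not tested.

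Leaving out 1 pair or array gave 11 to 14 tissue calls (median gap 0.10 to 0.34), 0 to 1 liver diet calls, 0 to 7 hypothalamus diet calls (gap 0.14 to 0.40; 7 without either congenic array), 0 to 2 hypothalamus strain calls (2 without either 2-choice array), 0 to 3 for strain by tissue and 0 to 9 for diet by tissue. The liver strain gap was 0.07 to 0.21. Values that changed sign were Psmb7 over tissue (-0.09 to 0.10), Psmb8 over liver strain (-0.34 to 0.44) and liver diet (-0.26 to 0.53), Psmb10 over hypothalamus strain (-0.21 to 0.52) and diet (-0.27 to 0.47), Psmb5 over hypothalamus strain (-0.55 to 1.11) and Psmb1 over strain by tissue (-0.06 to 0.17).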
